A study of Mus musculus with 6 samples.

Results

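The genes described here are 10 genes of fat cell formation and lipid handling, chosen by name from the 41126 genes of an RNA-seq table of cultured mouse dermal fibroblasts. They are 5 transcription factors (Pparg, Cebpa, Cebpb, Cebpd and Zfp423) and 5 genes of lipid uptake and storage (Fabp4, Lpl, Cd36, Plin2 and Plin4). Each gene was found through its Ensembl identifier, and all 10 were among the 15462 genes that passed the filter on low counts. Fibroblasts were taken from ventral skin at postnatal day 4 of mice on a mixed CD1 and C57Bl6 background. The 3 control cultures received an adenovirus carrying GFP. The 3 gain-of-function (GOF) cultures received an adenovirus carrying Cre, which removes exon 3 of a Ctnnb1 allele and leaves a β-catenin protein that escapes degradation. The labels give the controls as +/+ and the GOF cultures as Ctnnb1 delta-ex3/+, whereas the study's methods describe the same floxed allele in both groups. Since the controls had the GFP virus and the GOF cultures the Cre virus, virus and β-catenin cannot be told apart between the groups. The labels' treatment text differs from this in naming the Cre virus for every culture, at 366 to 500 MOI for 6 h. The time in the labels is that of the infection and not of the RNA harvest, which the study places days after infection. The study's methods also give a range of doses for the Cre virus but a single dose for the GFP virus. Virus dose may therefore have differed between the groups as well, and its part in the results was not tested. The cultures came from 4 animals, called A to D here. Animal C gave control replicate 2 and GOF replicate 0, animal D gave control replicate 0 and GOF replicate 2, animal B gave control replicate 1 only and animal A gave GOF replicate 1 only.

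Fat cells form from fibroblast-like precursors through a cascade of transcription factors. Cebpb and Cebpd act early, and they raise Pparg and Cebpa, which keep each other active and switch on the genes of fatty acid uptake and triglyceride storage. Zfp423 marks precursors committed to the fat lineage. Canonical Wnt signalling through β-catenin is known as a brake on this cascade, and the dermis of young mice lies on a layer of fat whose precursors are among its fibroblasts. The comparison of GOF with control asks how the RNA of these genes stood after β-catenin was stabilized.

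The libraries held between 35980831 and 42834467 fragments. Axin2, a feedback gene that reports Wnt signalling, was higher in GOF by 6.98 on the log2 scale (adjusted p = 4.95e-05). Of 10 Wnt feedback genes, 9 were called higher, against 6.69% of all genes tested, and Znrf3 was not called (0.56, adjusted p = 0.0537). Ctnnb1 itself read 254 to 285 FPKM (fragments scaled by transcript length and library size) in control and 246 to 297 in GOF, a difference of -0.05 (adjusted p = 0.844), and values for exon 3 alone were not analysed here. The cultures carried fibroblast RNA: 11 of 12 fibroblast markers, all but Col3a1, whose estimate failed in the controls, summed to 4407 to 5290 FPKM in control and 4029 to 4232 in GOF. Of these 11, 3 were called lower in GOF (Dcn, -1.67, adjusted p = 0.00584; Fn1, -1.33, adjusted p = 0.0176; Col1a2, -1.18, adjusted p = 0.0375) and 0 higher (2 higher by unadjusted p under 0.05, 0 by DESeq2), with a median of -0.69. The Fn1 call was lost without GOF replicate 1 and the Col1a2 call in 5 alternatives. These 3 calls were 27.3% of the markers tested, against 12.3% of all genes tested. Dcn, Fn1 and Col1a2 moved in the direction of the genes called lower below. Vim (0.70, adjusted p = 0.028) and Fap (0.75, adjusted p = 0.0303) were higher in GOF, by a fold under 2. The part of these markers in the results below was not tested. Mature fat cell genes were nearly absent: 17 of 20 markers stayed under 1 FPKM in every library, Lep was listed at 0 in all 6, and Adipoq, Plin1, Cidec and Cfd were below 0.1. The keratinocyte markers Krt5 and Krt14 stayed at or under 0.07 FPKM, while Dsp, which other cells also use, was called higher in GOF. The 10 keratinocyte markers summed to 0.5 to 0.707 FPKM in control and 2.97 to 6.88 in GOF, of which Dsp gave 2.39 to 6.36, and their part in the results was not tested.

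Of the 10 genes, 5 were called lower in GOF (Pparg, Cebpa, Cebpd, Fabp4 and Lpl), where a call means an adjusted p under 0.05 from edgeR and a fold change over 2. Calls in that direction were 5.64% of all genes tested. None of the 10 was called higher, against 6.69% of all genes; by unadjusted p under 0.05 there was 1 higher (Plin2), and DESeq2 also called 0 higher. On the adjusted p alone, 6 were lower (background 10.2%), the sixth being Cebpb, and 1 was higher (background 11.1%), Plin2, so 7 passed in either direction (background 21.2%). The remaining 3, Zfp423, Cd36 and Plin4, did not pass. In FPKM the groups did not overlap for 6 genes with GOF below (19.2% of all genes) and for 1 with GOF above (20.3%), 7 in either direction against 39.5% of all genes. With 3 libraries against 3, the exact two-sided permutation test on FPKM cannot go below p = 0.1, and these 7 genes reached that value. As these are bulk cultures, fewer cells of a type and less RNA per cell cannot be told apart.

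**Figure D1:**
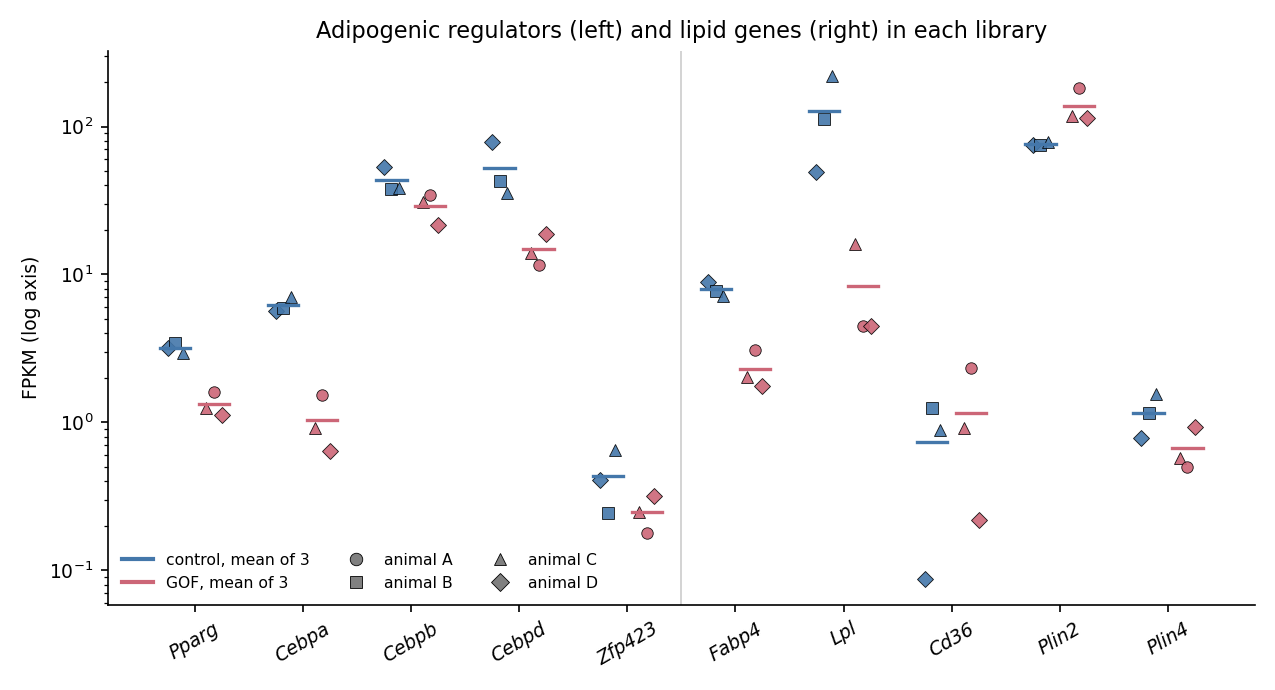
FPKM of the 10 genes in each library on a log axis, control in blue and GOF in red, with a line at the mean of 3 libraries and a marker shape for the animal. Pparg, Cebpa, Cebpb, Cebpd, Fabp4 and Lpl have all 3 GOF libraries below all 3 control libraries, Plin2 has them above, and Zfp423, Cd36 and Plin4 overlap.

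The stretch just upstream of the transcript start is where general transcription factors bind, so it is shown for 2 regulators that fell and for Plin2, which rose. RefSeq promoter sequences on GRCm38.p6 matched 7 of the 10 genes, and Cebpd, Fabp4 and Lpl have no entry. The 250 bases upstream of the start are given 5′ to 3′ on the gene's strand. Capitals mark a TATA box (TATAAA). The Cebpa window lies at chr7:35119043-35119292 on the plus strand, overlaps no annotated exon, and is 66.4% G or C.
Cebpa: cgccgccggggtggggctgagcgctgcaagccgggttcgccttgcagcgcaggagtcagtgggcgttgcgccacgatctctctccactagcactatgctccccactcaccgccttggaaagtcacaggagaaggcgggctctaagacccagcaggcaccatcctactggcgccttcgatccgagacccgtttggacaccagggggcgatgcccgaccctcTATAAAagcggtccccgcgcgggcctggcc
RefSeq lists 3 starts for Pparg. The one shown is the start farthest downstream, at chr6:115421816-115422065 on the plus strand, which overlaps no exon and is 40.8% G or C.
Pparg: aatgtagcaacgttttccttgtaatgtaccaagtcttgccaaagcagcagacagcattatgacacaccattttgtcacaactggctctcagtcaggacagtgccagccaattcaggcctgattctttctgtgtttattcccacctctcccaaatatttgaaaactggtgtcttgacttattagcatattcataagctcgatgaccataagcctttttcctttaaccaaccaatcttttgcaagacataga
The Plin2 window, at chr4:86670060-86670309 on the minus strand, shares 1 base with an exon and is 61.6% G or C.
Plin2: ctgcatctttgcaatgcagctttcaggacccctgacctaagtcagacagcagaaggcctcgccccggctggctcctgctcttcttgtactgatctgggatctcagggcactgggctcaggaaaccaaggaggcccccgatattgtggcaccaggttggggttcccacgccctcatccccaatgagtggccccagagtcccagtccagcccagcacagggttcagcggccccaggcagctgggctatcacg

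The 10 windows of these 7 genes were searched on both strands for 4 motifs. The TATA box was searched as TATAAA only, and other forms of it were not searched. TATAAA lies at -30 to -25 from the Cebpa start. A second Pparg start has its reverse complement TTTATA at -29 to -24. On either strand, 12.4% of all 32851 RefSeq promoter windows hold TATAAA. The C/EBP motif TTGNNCAA was found in a Zfp423 window at -131 to -124, and 5.65% of all windows hold it. The TCF/LEF motif CTTTGAT, held by 3.21% of all windows, and the PPAR direct repeat AGGTCANAGGTCA, held by 0.0335%, had no match in the 10 windows. These letters say nothing of binding in these cells.

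Cebpa, the C/EBP factor that sustains the late stage of fat cell formation, showed the largest fall among the transcription factors. The gene lies at chr7:35119293-35121928 on the plus strand. Its level was 5.68, 5.93 and 7.02 FPKM in control replicates 0, 1 and 2, and 0.911, 1.54 and 0.636 in GOF replicates 0, 1 and 2. The lowest control was thus well above the highest GOF library. From 6.21 ± 0.713 to 1.03 ± 0.465 FPKM (mean ± SD, n = 3), the fitted fall was 6.35-fold, or -2.67 on the log2 scale (SE 0.27, adjusted p = 0.000861). Within animals the log2 ratio of FPKM was -2.95 in animal C and -3.16 in animal D. In rank among the genes tested, Cebpa went from percentile 50.2 in control to 23.4 in GOF.

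Pparg encodes the nuclear receptor that fat cell formation requires and lies at chr6:115360951-115490399 on the plus strand. Its level was 3.16, 3.44 and 2.94 FPKM in control and 1.25, 1.6 and 1.12 in GOF. The spread within each group was small, with the highest control 1.17 times the lowest and the highest GOF library 1.43 times the lowest. The means were 3.18 ± 0.251 and 1.32 ± 0.251 FPKM, and the fitted fall was 2.43-fold, or -1.28 (SE 0.22, adjusted p = 0.00716). The log2 ratio was -1.24 within animal C and -1.50 within animal D. Pparg thus stood at a low level in both groups, at percentile 37.8 in control and 26.4 in GOF.

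Cebpd and Cebpb, the early C/EBP factors, were the most abundant transcription factors of the set. Cebpd (chr16:15887286-15891031, plus strand) read 78.6, 42.7 and 35.6 FPKM in control and 14, 11.5 and 18.8 in GOF. Every control lay above every GOF library, but control replicate 0 stood well above the other controls. The fitted fall was 3.69-fold, or -1.89 (SE 0.41, adjusted p = 0.0173), and the ratios were -1.35 within animal C and -2.06 within animal D. Leaving out GOF replicate 0 or GOF replicate 1 ended the call, with adjusted p of 0.079 and 0.0583. Of the 3746 exon bases of Cebpd, 562 are shared with Spidr on the opposite strand. Spidr had 6925 fragments over the 6 libraries against 5605 for Cebpd. The study's methods name a stranded library kit, but whether the counting used the strand is not given in the sources used here.

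Cebpb (chr2:167688915-167690418, plus strand) read 53.4, 37.8 and 38.7 FPKM in control and 31, 34.3 and 21.7 in GOF. The groups did not overlap, but the lowest control and the highest GOF library lay close together. The fall from 43.3 ± 8.74 to 29 ± 6.53 FPKM was 1.64-fold, or -0.71 (SE 0.21, adjusted p = 0.0476), just inside the threshold and under the fold of 2. It passed in 7 of its 15 alternatives, was lost in 8, and had an adjusted p of 0.0643 with the animal as a replicate block. The within-animal log2 ratios were unequal, at -0.32 in animal C and -1.30 in animal D. Cebpb shares 312 of its 1504 exon bases with Tmem189 on the opposite strand, and Tmem189 had 11118.8 fragments in all against 5692.

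Zfp423, a zinc finger factor of committed fat cell precursors (chr8:87661810-87959595, minus strand), had the lowest mean of the 10 genes in both groups, although Cd36 was lower in both cultures of animal D. It read 0.409, 0.244 and 0.655 FPKM in control and 0.247, 0.179 and 0.316 in GOF, so the groups overlapped. These values rest on 12 to 59 fragments a library, and the fitted difference of -0.61 had an SE of 0.48 (adjusted p = 0.403). Without GOF replicate 1, the library with 12 fragments, it was -0.21 (adjusted p = 0.679). FPKM and fragments did not keep step for this gene: FPKM divided by CPM (counts scaled by library size and TMM factor, not by length) ranged 2.78-fold between libraries, against a median of 1.14-fold over 13091 genes, so within animal C the log2 ratio was -1.41 in FPKM and -0.35 in CPM.

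Lpl, the lipoprotein lipase that frees fatty acids from circulating triglyceride, had the largest fall of all 10 genes. It lies at chr8:68880491-68907448 on the plus strand. It read 49, 112 and 220 FPKM in control and 16.1, 4.45 and 4.45 in GOF. All control libraries were above all GOF libraries, and both groups were uneven, by 4.49-fold among controls and 3.61-fold among GOF libraries. The fitted fall was 15.5-fold, or -3.95 (SE 0.70, adjusted p = 0.00751). Without GOF replicate 0 it was -4.78 and without control replicate 2 it was -3.34, with adjusted p of 0.011 and 0.0153. The fall was also seen within animals, at -3.78 in animal C and -3.46 in animal D. In control Lpl stood at percentile 96.2 of the genes tested, and in GOF at 56.6.

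Fabp4, a fatty acid carrier of fat cells that is a textbook PPARγ target, lies at chr3:10204088-10208576 on the minus strand. It read 8.88, 7.71 and 7.17 FPKM in control and 2.02, 3.08 and 1.77 in GOF. The groups were well apart, with the lowest control above the highest GOF library. The mean went from 7.92 ± 0.873 to 2.29 ± 0.696 FPKM, a fitted fall of 3.45-fold, or -1.79 (SE 0.29, adjusted p = 0.00532). Within animals the log2 ratio was -1.83 in animal C and -2.33 in animal D.

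Plin2, which coats lipid droplets in most cell types, moved the other way. It lies at chr4:86648386-86670060 on the minus strand. It read 74.6, 75.4 and 78.6 FPKM in control and 117, 181 and 114 in GOF. The controls were nearly equal, every GOF library lay above them, and GOF replicate 1 was the highest. The rise from 76.2 ± 2.16 to 138 ± 37.9 FPKM was 1.82-fold, or 0.86 (SE 0.20, adjusted p = 0.0215), which passed the adjusted p but not the fold of 2. The ratio was 0.58 within animal C and 0.62 within animal D. The adjusted p went above the threshold without control replicate 1 (0.0768), without control replicate 2 (0.0607) and with the label number as a replicate block (0.0546).

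Plin4, a perilipin found mainly in fat and muscle (chr17:56100591-56109803, minus strand), read 0.784, 1.15 and 1.55 FPKM in control and 0.575, 0.499 and 0.936 in GOF. The groups overlapped, since GOF replicate 2 was above control replicate 0. Those 2 libraries come from animal D, in which the log2 ratio was 0.25, against -1.43 in animal C. The fitted difference of -0.84 (SE 0.33) did not pass (adjusted p = 0.11). Leaving out control replicate 0 brought it past both thresholds (-1.08, adjusted p = 0.0383), as did leaving out GOF replicate 2 (-1.17, adjusted p = 0.0436).

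Cd36, a fatty acid translocase of fat cells, macrophages and endothelium (chr5:17781690-17888801, minus strand), was the most variable of the 10. It read 0.0866, 1.25 and 0.889 FPKM in control and 0.914, 2.32 and 0.22 in GOF, a range of 14.4-fold among controls and 10.5-fold among GOF libraries. The groups overlapped, and the lowest value in each belonged to animal D. The fitted difference of 0.74 (SE 0.98, adjusted p = 0.633) became -0.37 (adjusted p = 0.842) without GOF replicate 1. The macrophage gene Tyrobp, an adaptor of immune receptors, was likewise lowest in both cultures of animal D, at 0.0583 FPKM in its control and 0.0493 in its GOF culture, against 0.936 to 1.93 in the other 4. The 10 macrophage markers summed to 14.5 to 24.8 FPKM in control and 11.5 to 31.8 in GOF, with the lowest sum of each group in animal D. By gene, 7 of the 10 were lowest of both groups in animal D, Csf1r and Cd14 were lowest there in GOF only, and Aif1 was the highest of both groups there. The share of all genes with this pattern was not computed, and the libraries of animal D deviated together over all genes (r = 0.41). Of the 9 macrophage markers tested, 1 (Csf1r) was called higher in GOF and 0 lower (0 also by unadjusted p under 0.05 and by DESeq2). This is 11.1% called, against 12.3% of all genes tested in either direction. The 10 endothelial markers summed to 9.86 to 11.5 FPKM in control and 11.8 to 13.1 in GOF. In animal D their sums were 10.4 in its control and 12.3 in its GOF culture, the lowest of neither group. Of the 8 endothelial markers tested, 2 were called higher in GOF (Kdr, 1.77, adjusted p = 0.011, and Esam, 3.05, adjusted p = 0.00359). The 1 called lower was Tek (-2.27, adjusted p = 0.019), a call lost without GOF replicate 0 (adjusted p = 0.0855). These calls were 37.5% of the endothelial markers tested, against 12.3% of all genes. The part of macrophage or endothelial RNA in the Cd36 values was not tested.

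**Figure D2:**
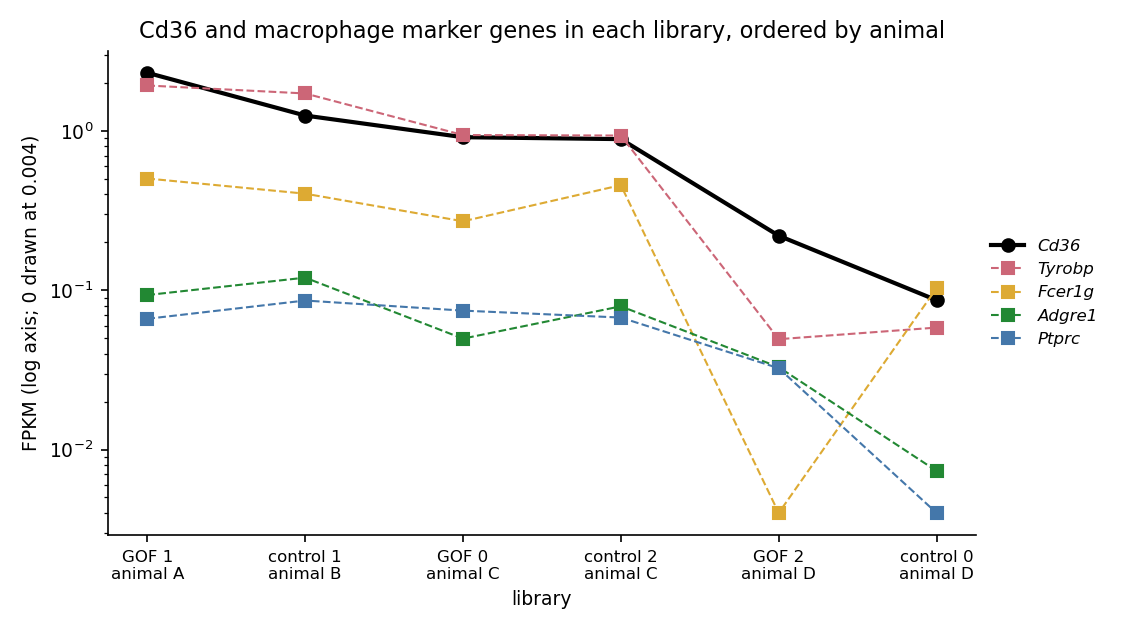
FPKM of Cd36 and of 4 macrophage marker genes in each of the 6 libraries, ordered by animal, on a log axis with values of 0 drawn at 0.004. Cd36 and Tyrobp are lowest in the GOF 2 and control 0 libraries of animal D, at 0.22 and 0.0866 FPKM for Cd36. The 4 markers drawn are all from the 7 of 10 that are lowest of both groups in animal D, and Aif1, Csf1r and Cd14 are not drawn.

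The order of the 10 genes by mean FPKM differed between the groups. In control it ran Lpl, Plin2, Cebpd, Cebpb, Fabp4, Cebpa, Pparg, Plin4, Cd36 and Zfp423. Neighbours overlapped in their library values from Lpl down to Cebpb, and from Plin4 down to Zfp423, so those parts of the order are not resolved. In GOF it ran Plin2, Cebpb, Cebpd, Lpl, Fabp4, Pparg, Cd36, Cebpa, Plin4 and Zfp423, with overlap between Cebpd and Lpl and at each step from Pparg down to Plin4. Plin2 was the highest in GOF with no overlap with the next gene, whereas Lpl went from the first to the fourth place and Cebpa from the sixth to the eighth. In both animals that gave a culture to each group, 7 of the 10 genes had a lower FPKM in GOF (35.9% of all genes tested): those called lower, with Cebpb and Zfp423.

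**Figure D3:**
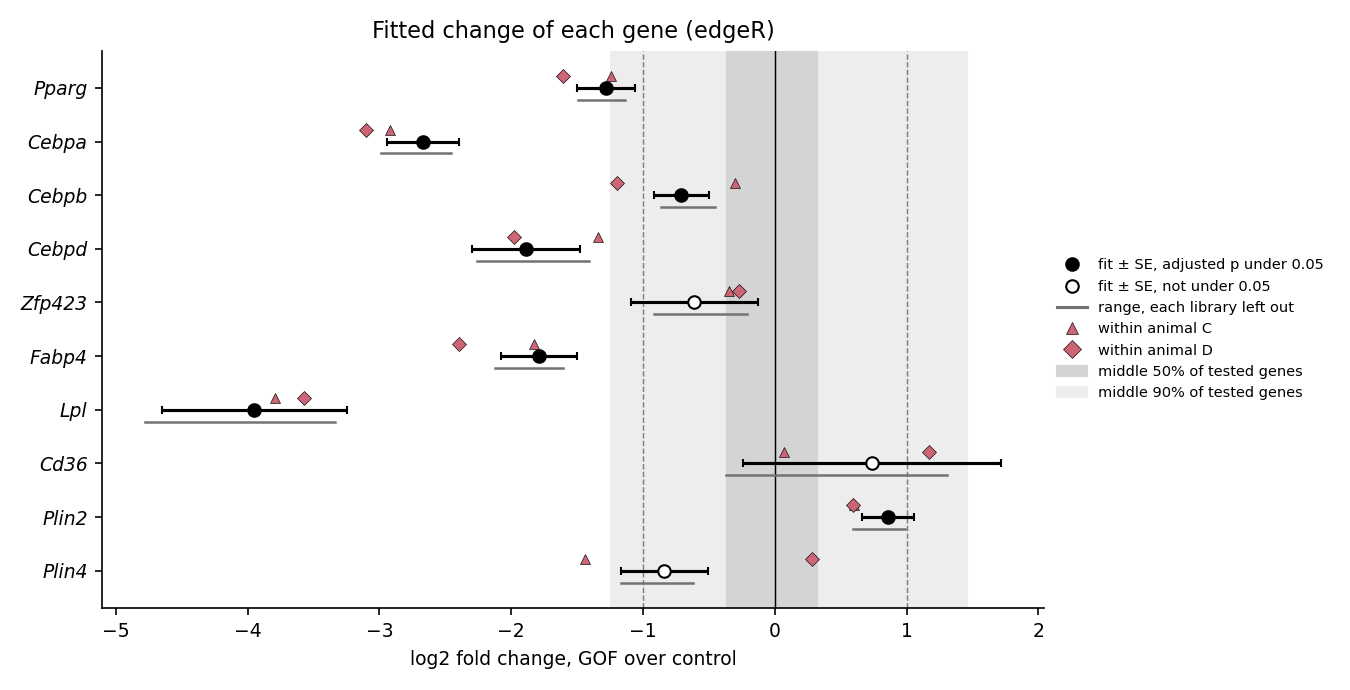
Fitted log2 fold change of GOF over control with its SE for each gene (filled where the adjusted p is under 0.05), the range when each library is left out in turn (grey line), and the ratio of CPM within animals C and D (red markers). Dashed lines mark a fold of 2, and grey bands the middle 50% (-0.36 to 0.32) and 90% (-1.24 to 1.46) of the 15462 genes tested. Lpl, Cebpa, Cebpd, Fabp4 and Pparg lie left of the lower dashed line, and the 2 animals differ in sign for Plin4.

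Of the partners of these genes, the other C/EBP factors did not pass the test. Cebpg, a C/EBP partner, read 27 to 28.7 FPKM in control and 17.5 to 23.5 in GOF (-0.27, adjusted p = 0.121), and Ddit3, a stress-induced member that blocks the others, read 109 to 125 and 57.3 to 108 (-0.58, adjusted p = 0.117). For both, the 3 GOF libraries were below the 3 controls, and Cebpe was listed at 0. The adjusted p of Ddit3 was 0.0154 without GOF replicate 2 and up to 0.28 in other alternatives. That of Cebpg was 0.0499 with limma on log2(FPKM + 0.1) and up to 0.347 in other alternatives. Of the 11 other PPAR and RXR receptors and coactivators tested, 1 was called lower, or 9.09% against 12.3% of all genes tested in either direction. This was Ppargc1b (at most 0.175 FPKM, -1.69, adjusted p = 0.0248), and its call was lost in 8 alternatives. Rxra, the partner with which PPARγ binds DNA, was 12.2 to 17.1 FPKM in control and 8.43 to 11.8 in GOF (-0.52, adjusted p = 0.071). The adjusted p of Rxra was 0.0427 with DESeq2, 0.0297 without control replicate 0 and 0.0379 with the animal as a block, and up to 0.205 in other alternatives. Ppard, a sister receptor, was 1.94 to 2.07 and 1.97 to 4.75 FPKM (0.71, adjusted p = 0.136). Its adjusted p was 0.0446 without GOF replicate 2 and up to 0.399 in other alternatives.

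Among 24 other genes that promote fat cell formation, 3 were called higher and 5 lower, or 33.3% against 12.3% of all genes tested in either direction, with a median log2 fold change of -0.30 against -0.02 over all genes. The transcription factors Ebf3 (-2.43, adjusted p = 0.000825), Klf15 (-1.57, adjusted p = 0.00106) and Egr2 (-1.95, adjusted p = 0.00222) fell. Nr1h3 (-1.06, adjusted p = 0.042) and Fgf10 (-1.60, adjusted p = 0.0217) were also called lower. Called higher were the transcription factors Klf5 (2.23, adjusted p = 0.0117) and Prdm16 (1.12, adjusted p = 0.0456), and the growth factor gene Bmp2 (4.58, adjusted p = 0.0065). Bmp2 rose from at most 0.0348 FPKM to 0.286 or more. Of 18 tested inhibitors, 2 were called higher and 1 lower, or 16.7% against 12.3%, with a median of 0.07. Gata3, which represses Pparg, rose from 0.118 to 0.158 FPKM to 0.746 to 0.888 (2.50, adjusted p = 0.00245), and Twist1, a repressor of PGC-1 targets, rose by 1.04 (adjusted p = 0.00252). Zfp521, which opposes Zfp423, fell by 1.22 (adjusted p = 0.0193), a call lost in 5 alternatives. The inhibitors Gata2 (0.17, adjusted p = 0.681), Nr2f2 (0.10, adjusted p = 0.697) and Dlk1 (-0.82, adjusted p = 0.141) did not pass. Without control replicate 0, Dlk1 was past both thresholds (-1.09, adjusted p = 0.0377), and its adjusted p was up to 0.344 in other alternatives.

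Beside Plin2 and Plin4, 9 droplet genes were tested, with a median of 0.37. Of these, 1 was called lower, or 11.1% against 12.3% of all genes tested in either direction. The gene called lower was G0s2, an inhibitor of the lipase ATGL, which went from 4.42 to 4.96 FPKM to 0.282 to 0.345 (-3.90, adjusted p = 0.000233). Ldah was higher in GOF by a fold under 2 (0.77, adjusted p = 0.00466). Fitm2 (0.37, adjusted p = 0.062) and Hilpda (0.52, adjusted p = 0.0828) did not pass, with every GOF library above every control. Plin3, the widely expressed perilipin, read 63.3 to 64.5 and 52.6 to 56.1 FPKM (-0.27, adjusted p = 0.103), and Plin5 stayed under 0.06 FPKM. Beside Fabp4 and Cd36, 13 genes of fatty acid binding and uptake were tested, with 1 called higher and 1 lower, or 15.4% against 12.3%. Fabp3, the heart-type carrier, rose from 16.7 to 21.7 FPKM to 43 to 48.5 (1.22, adjusted p = 0.00148), and Slc27a6, a fatty acid transporter, fell by 4.09 (adjusted p = 0.000275). Fabp5, the epidermal carrier, read 49.6 to 136 FPKM in control and 10.9 to 65.2 in GOF (-1.44, adjusted p = 0.148). The adjusted p of Fabp5 was 0.0201 without GOF replicate 2, and 0.00172 with the animal as a block, which leaves 1 residual degree of freedom.

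Beside Lpl, 10 lipases and lipase regulators were tested, with 1 called higher and 0 lower (0 also by unadjusted p under 0.05 and by DESeq2). These calls were 10% of the list, against 12.3% of all genes tested in either direction. The endothelial lipase gene Lipg rose from 0.114 to 0.184 FPKM to 0.315 to 0.451 (1.45, adjusted p = 0.017), a call lost in 4 alternatives. Angptl4, which inactivates lipoprotein lipase, read 1.96 to 5.08 FPKM in control and 5.2 to 24.7 in GOF, with no overlap (1.80, adjusted p = 0.0567). The adjusted p of Angptl4 was 0.00228 with DESeq2, 0.0233 with no filter on low counts and 0.024 without GOF replicate 2. With the animal as a block, which leaves 1 residual degree of freedom, it was 0.0076, and in other alternatives it reached 0.152. Gpihbp1, which carries the lipase to the capillary wall, was listed at 0 in all libraries. Of 17 genes of triglyceride synthesis tested, 4 were called higher and 0 lower (2 lower by unadjusted p under 0.05, 0 by DESeq2), or 23.5% against 12.3%, with a median of 0.18. These were Gk (1.76, adjusted p = 0.00115), which makes glycerol phosphate, Mogat2 (2.46, adjusted p = 0.00149) and Dgat2 (1.06, adjusted p = 0.00927), which add acyl chains, and Lpin3 (1.08, adjusted p = 0.00261), a phosphatidate phosphatase. The Dgat2 call was lost with the label number as a replicate block (adjusted p = 0.0549).

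Among 23 tested PPAR target genes outside the 10, 2 were called higher (Gk and Fabp3) and 1 lower (Cyp4b1, -2.00, adjusted p = 0.0134), or 13.0% against 12.3%, with a median of 0.22. The Cyp4b1 call was lost without GOF replicate 0 (adjusted p = 0.0599). Of the 7 mature fat cell markers that could be tested, 1 was called higher (Adrb3, 2.29, adjusted p = 0.0141) and 1 lower (Trarg1, -3.51, adjusted p = 0.00751), or 28.6%. The list summed to 7.13 to 8.84 FPKM in control and 7.32 to 9.92 in GOF. The Adrb3 call was lost without control replicate 1 (adjusted p = 0.0504). Among 14 markers used for fat cell precursors, 2 were called higher and 4 lower, or 42.9%, with a median of -0.77. Dpp4, a surface peptidase of early precursors, rose from 0.437 to 0.644 FPKM to 16.3 to 30.8 (5.77, adjusted p = 0.000226), whereas Pi16, a marker of the same precursors, fell by 4.08 (adjusted p = 0.000452) and F3 (tissue factor) and Clec11a fell by 1.51 and 2.35 (adjusted p = 0.000853 and 0.00121).

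**Figure D4:**
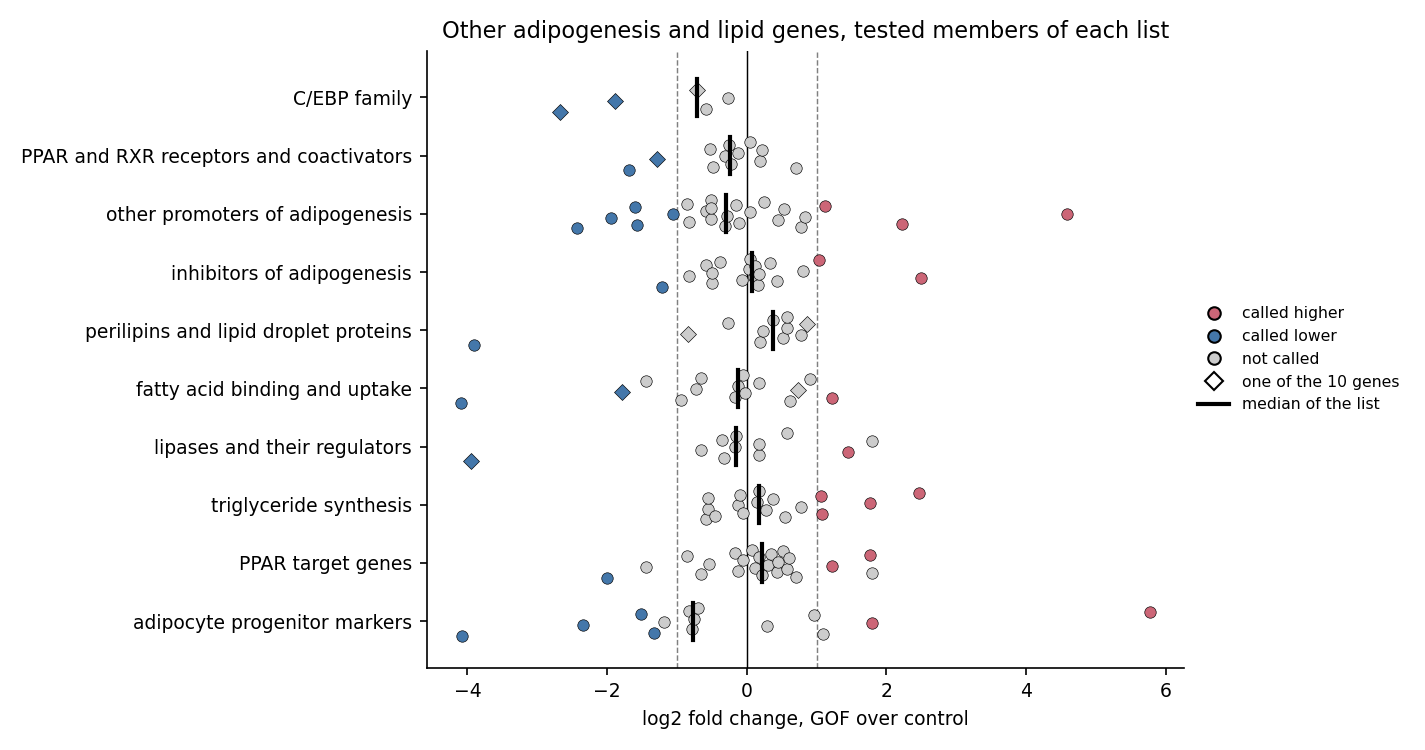
Log2 fold change of GOF over control for the tested genes of 10 lists, with called genes in red (higher) or blue (lower), diamonds for those of the 10 genes that a list holds, and a black bar at each list's median. Dashed lines mark a fold of 2, and medians run from -0.77 for the precursor markers to 0.37 for the lipid droplet proteins.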

How the data were processed

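RNA-seq fragments were mapped to mm10 with TopHat and quantified with Cuffdiff by the authors. The authors deposited estimated counts, the fragments assigned to each gene and library without scaling, and the FPKM values were deposited after Cuffdiff's scaling by length and library. The members and lists were chosen with earlier results of these data known. A further 6 per-library columns and a separate table of lncRNAs were not used, and 32 genes whose estimate failed were left out. Identifiers were matched to GENCODE M21 (GRCm38) for 97.9% of genes. Counts (4.95% not whole, tolerance 1e-06) were rounded and tested in R 4.3.3 with edgeR 4.0.16 (TMM, filterByExpr, quasi-likelihood test, Benjamini-Hochberg adjustment). DESeq2 1.42.0 and limma 3.58.1 served alternatives. FPKM of single genes were compared by exact permutation test (scipy 1.17.1). The genes followed through the alternatives are all 10 members, up to 4 called genes of each list by smallest adjusted p, and fixed partners. Other genes are named for their list, and their changes under the alternatives are not given. Precision is limited by 3 libraries a group, with 35980831 to 42834467 fragments each. Whether cultures counted as replicates were separate beyond their animal is not stated, and p-values measure only the spread between them. In simulated GOF and control libraries (15225 genes tested), edgeR called 173 of 200 changed genes and 11 unchanged ones. These counts hold only for the changes and libraries that were simulated. They are not a detection rate for the smaller changes among the 10 members, or for libraries that share an animal. Same-animal libraries deviated together (r = 0.46 and 0.41), whereas same-numbered ones did not (-0.41, 0.05 and -0.44).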

Additional observations from a re-analysis of the deposited data

How the results depend on the processing

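The number of the 10 genes called lower (5) was also 5 under library totals, upper-quartile scaling, DESeq2, no filter, an FPKM of at least 1 in 3 libraries, limma on log2(FPKM + 0.1) and both replicate blocks, and each time these were Pparg, Cebpa, Cebpd, Fabp4 and Lpl. It was 4 with limma on log2(FPKM + 1), where Pparg stayed under the fold of 2, and 2 (Cebpa and Lpl) when edgeR tested for a change beyond a fold of 2. Leaving out each library gave 4 to 6, and 1311 to 1961 calls over all genes. The 1906 calls over all genes became 877 with limma on log2(FPKM + 1) and 618 in the latter test. With a replicate block they were 1421 by label number and 2008 by animal, the latter leaving 1 residual degree of freedom. Among the genes followed, the label-number block lost Cebpb, Plin2, Zfp521, Ppargc1b, Lipg, Dgat2 and Col1a2. The animal block lost Cebpb and brought Rxra, Fabp5 and Angptl4 past the adjusted p. Signs turned for Cd36 (-0.37 without GOF replicate 1, and -0.37 to 1.31 as each library was left out), Gata2 (-0.09 without GOF replicate 0, range -0.09 to 0.34), Nr2f2 (-0.0015 and -0.0039 with limma after adding 1 and 0.1) and Ctnnb1 (0.02 without GOF replicate 0, range -0.16 to 0.02), none of which passed the test. Of 712 values computed for the list genes followed, 668 kept their direction and side of the threshold. The causes of these changes were not tested. For Zfp423, at 12 to 59 fragments a library, depth and the spread between libraries were not separated.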
